A study of Mus musculus with 3 samples.

Results

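The genes described here are Oas, Mx and PKR effectors of the mouse, most of them known as interferon-inducible: Oas1a, Oas1b, Oas1c, Oas2, Oas3, Oasl1, Oasl2, Mx1, Mx2 and Eif2ak2. They were chosen by gene name, whatever their biotype, and are 10 of the 54532 genes of the expression table. RNA from the hippocampus of C57BL/6 mice aged 10 months was sequenced, with 1 library for each of 3 genotypes. The first is wild type (WT), and the second is PS19, which carries a transgene for mutant human tau under control of the Prnp promoter of the mouse. By its label, the PS19 Zbp1+/- library carries the same transgene, with 1 allele of Zbp1, a sensor of Z-form nucleic acids, lost. The labels give neither the sex of the mice nor whether RNA of several animals was pooled. The comparisons ask how these effectors differ between PS19 and WT, and how they differ when Zbp1 dosage is lowered in PS19.

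Oas enzymes bind double-stranded RNA and make 2-5A, a short oligoadenylate that acts as a second messenger and leads to the cleavage of viral and cellular RNA. Mx proteins are large GTPases of the dynamin superfamily that block viral nucleoproteins, and PKR, the product of Eif2ak2, is a kinase that binds double-stranded RNA and phosphorylates eIF2α to halt translation. Most are classical targets of ISGF3, a transcription factor complex that forms after type I interferon binds its receptor. In the brain, microglia are one of the cell types known to raise these genes.

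Levels are FPKM, in which the fragments of a gene are divided by its length and by a library size. That size is the one implied by the deposited values and is not the total of the reads. Reads are the whole counts recovered from FPKM. Differences are of log2(FPKM + 1), which understates the change of weakly expressed genes, and a gene is called when its difference reaches 1 in either direction, that is 2-fold on that scale. Ratios are of reads per library size, with exact Clopper-Pearson 95% intervals. With 1 library per genotype there was no replicate check and no test: a ratio compares libraries, not genotypes. The intervals hold counting error alone, because no molecular identifiers were used and reads may be copies of 1 molecule. In bulk RNA, fewer cells of a type and less RNA per cell cannot be told apart.

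In the order WT, PS19 and PS19 Zbp1+/-, in which values of the 3 libraries are given throughout, the libraries held 16746085, 16400328 and 17109734 reads. Zbp1 had 5, 91 and 0 reads. Xist had 11062 and 13350 reads in WT and PS19 and 0 in PS19 Zbp1+/-, whereas the Y-linked Ddx3y had 711 reads in PS19 Zbp1+/- and 0 in both others, so sex and genotype cannot be told apart in either comparison with that library. PS19 Zbp1+/- also stood apart among weakly expressed genes: of 357 genes with 8 to 12 reads in both other libraries, 57 had no read in it (16%, Clopper-Pearson interval 12.3% to 20.2%), against 1 of 244 for PS19 and 5 of 234 for WT. The choroid plexus markers summed to 3120 FPKM in WT, 1907 in the PS19 library and 10.5 in PS19 Zbp1+/-. Tissue content and genotype thus cannot be told apart either in the comparisons with PS19 Zbp1+/-. Tissue content was not matched between PS19 and WT either, though the gap was smaller. All 6 choroid plexus markers were lower in PS19 than in WT, with a Ttr read ratio of 0.607 (0.599 to 0.615). The 5 hippocampal markers were present in every library, with sums of 141, 115 and 122, but single markers differed in direction. In PS19 Zbp1+/- against PS19, Prox1 and Zbtb20 had read ratios of 0.547 and 0.464. Wfs1, Neurod6 and Bcl11b had 1.03, 1.14 and 1.60.

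PS19 held more RNA of these effectors than either other library. The FPKM of the 10 genes summed to 3.90 in WT and 21.8 in PS19, and to 2.56 in PS19 Zbp1+/-, from 262, 1570 and 185 reads. PS19 was highest for 9 of the 10 genes, Oas1c being the exception. Against WT, 6 genes rose and 0 fell (Oas1a, Oas1b, Oasl2, Mx1, Mx2 and Eif2ak2), where 2.06% of 13427 expressed genes were called higher and 0.276% lower, and 1.62% and 0.212% of the 17492 genes with a read in any library. The counting interval of the read ratio lay wholly above 1 for 9 of the 10 and wholly below 1 for 0, where 23.9% and 24.9% of those 17492 genes did. The median difference of the 10 was 1.14, beside -0.02 over the 13427 expressed genes. A mean FPKM of at least 0.5, the filter behind that background, was met by exactly these 6, so Oas1c, Oas2, Oas3 and Oasl1 were below it.

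**Figure D1:**
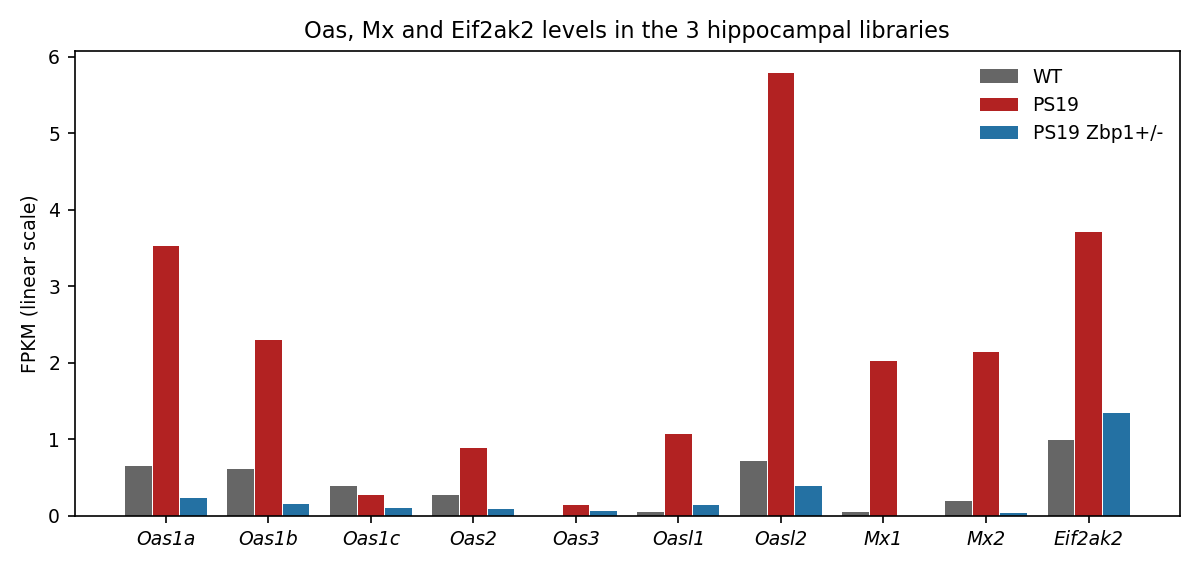
FPKM of the 10 genes in the WT, PS19 and PS19 Zbp1+/- libraries, 1 bar per library, with no error bar because each genotype has 1 library. The PS19 bar is the tallest for every gene except Oas1c, and reaches 5.79 for Oasl2.

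Among the synthetases, Oas1a (ENSMUSG00000052776; GRCm38 chromosome 5, 120896256 to 120907521, minus strand), an active enzyme, was at 0.646 FPKM in WT, 3.53 in the PS19 library and 0.235 in PS19 Zbp1+/-, from 21, 115 and 7 reads. PS19 was the high library, and Oas1a rose by 1.46 against WT, a read ratio of 5.47 (3.41 to 9.17). Oas1b (ENSMUSG00000029605; chromosome 5, 120812635 to 120824163, plus strand), the flavivirus resistance gene, had 0.611, 2.29 and 0.159 FPKM from 21, 79 and 5 reads. It rose by 1.03, with a ratio of 3.75 (2.30 to 6.40). Oas1b is annotated as a polymorphic pseudogene because C57BL/6 carries a premature stop, so its RNA is measured here while its full-length protein is not encoded. Oas1c (ENSMUSG00000001166; chromosome 5, 120800194 to 120812514, minus strand), a family member without synthetase activity, had 0.386, 0.265 and 0.105 FPKM from 16, 11 and 4 reads. It was the only one of the 10 with a negative difference between PS19 and WT, -0.13, and its ratio of 0.686 had an interval that included 1 (0.288 to 1.57).

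The stretches below show why Oas1b is listed as a pseudogene: both are 39 coding bases of GENCODE M21 transcripts, read on GRCm38, and the capitals mark the codon at which the reading frame of Oas1b first stops and the codon aligned with it in Oas1a. The Oas1b stretch is at chr5:120821290-120821328, plus strand, and the Oas1a stretch at chr5:120899171-120899209, minus strand.
Oas1b: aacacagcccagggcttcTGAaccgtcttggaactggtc
Oas1a: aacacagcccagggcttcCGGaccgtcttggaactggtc
The stop is codon 253 of 376 annotated codons of Oas1b, and the aligned codon is 258 of 367 in Oas1a. The 2 stretches differ at 2 bases, both in that codon.

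Promoter sequence is shown for the members whose RefSeq window (GRCm38.p6, 250 bases before to 50 after the start) held GAAANNGAAA, the core of the element that ISGF3 binds, since most of the 10 genes were high together in PS19. Oas1c, one of those shown, was not. The table held 6 of the 10 genes (Oas1a, Oas1c, Oas3, Oasl1, Oasl2 and Eif2ak2), and 4 of these 6 windows carried the letters on either strand, against 3.44% of all 32851 windows of the same length. The longer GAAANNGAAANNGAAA, which contains the shorter motif as overlapping matches, was in 0.116% of windows, among them those of Oas1a and Oas1c. The capitals mark the match. Oas1a is at chr5:120907526-120907585, minus strand. Oas1g, its closest paralog, is at chr5:120887614-120887673, minus strand. The whole interval between Oas1c and Oas1b, genes that point away from each other, is at chr5:120812515-120812634 and is printed on the plus strand. Oas3 is at chr5:120777660-120777759, minus strand, and Eif2ak2 at chr17:78882535-78882562, minus strand. The Eif2ak2 match begins 18 bases after the start, inside the gene, whereas those of Oas1a, Oas1c and Oas3 lie before the start.
Oas1a: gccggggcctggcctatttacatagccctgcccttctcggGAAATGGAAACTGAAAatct
Oas1g: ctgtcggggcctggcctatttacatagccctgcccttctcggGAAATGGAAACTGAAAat
Oas1c to Oas1b: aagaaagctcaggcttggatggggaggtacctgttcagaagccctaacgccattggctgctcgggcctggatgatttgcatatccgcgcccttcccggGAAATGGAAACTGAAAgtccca
Oas3: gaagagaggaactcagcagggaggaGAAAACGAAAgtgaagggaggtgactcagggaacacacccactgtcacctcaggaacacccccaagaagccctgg
Eif2ak2: tccgccggGAAAACGAAAcagaagagaa
Within the printed stretches, Oas1a and Oas1g share an unbroken run of 56 bases around the match. That run reaches the end of the Oas1g stretch, so the full shared run may be longer. Oas1a shares 19 bases with the Oas1c to Oas1b interval. In that interval the match begins 22 bases before the Oas1b start, so Oas1b, which rose, and Oas1c, which was not called, had the same match between them. Oasl2, with the largest difference of the 10, and Oasl1 had no match in their windows. A match describes the letters and is not evidence of binding.

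The larger synthetases were weakly expressed. Oas2 (ENSMUSG00000032690; chromosome 5, 120730333 to 120749853, minus strand) had 0.273 FPKM in WT and 0.884 in PS19, beside 0.0852 in PS19 Zbp1+/-, from 21, 68 and 6 reads. It was not called between PS19 and WT at a difference of 0.56, although its read ratio was 3.23 (1.96 to 5.55). Oas3 (ENSMUSG00000032661; chromosome 5, 120753098 to 120777661, minus strand), which makes 2-5A at low levels of double-stranded RNA, had 0, 17 and 7 reads. Its FPKM was 0.139 in PS19 and 0.0626 in PS19 Zbp1+/-, and 3 reads in WT would have been 0.0246. Against that floor of 3 reads in the WT library, Oas3 was at least 5.66-fold higher in PS19, with a difference of 0.19 that passed no threshold.

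Oasl2, an Oas-like protein with synthetase activity, was the strongest of the group in PS19. Oasl2 (ENSMUSG00000029561; chromosome 5, 114896936 to 114912234, plus strand) had 0.718, 5.79 and 0.387 FPKM from 79, 638 and 39 reads, so PS19 lay far above both other libraries. It rose by 1.98, a ratio of 8.06 (6.37 to 10.3), and ranked 42 of the 13427 expressed genes by the size of its difference. Oasl1 (ENSMUSG00000041827; chromosome 5, 114923240 to 114937915, plus strand), which lacks synthetase activity and restrains translation of Irf7, had 0.0444, 1.06 and 0.145 FPKM from 2, 48 and 6 reads. Its difference of 0.98 was just under the threshold, while its ratio was 24.0 with a wide interval (6.28 to 204), set by the 2 WT reads. Oas1b, at 1.03, was the called gene nearest to the threshold.

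The make-up of the family is given as shares of summed FPKM, for which no counting interval was computed. Oasl2 supplied 26.8% of the summed FPKM of the 7 Oas genes in WT and 41.5% in PS19, beside 32.8% in PS19 Zbp1+/-. The share of Oas1c was 14.4%, 1.90% and 8.92%. Oas1a kept between 19.9% and 25.3% in the 3 libraries. The PS19 Zbp1+/- shares rest on 74 reads, 39 of Oasl2, 7 of Oas1a and 4 of Oas1c, so they are uncertain.

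Among the 6 called genes, the Mx genes had the lowest WT levels and the largest read ratios in PS19 against WT. Mx1 (ENSMUSG00000000386; GRCm38 chromosome 16, 97447035 to 97462907, minus strand), known for restricting influenza virus, had 0.0459, 2.02 and 0 FPKM from 3, 132 and 0 reads. It rose by 1.53, a ratio of 43.9 (14.7 to 216) against 3 WT reads. Mx2 (ENSMUSG00000023341; chromosome 16, 97535308 to 97560900, plus strand), whose product is cytoplasmic, had 0.192, 2.14 and 0.0350 FPKM from 12, 134 and 2 reads. It rose by 1.40, a ratio of 11.1 (6.17 to 22.1). Both genes are known to be defective in C57BL/6. The Mx2 transcript annotated as a polymorphic pseudogene stops in frame at codon 424 of 656. The same annotation also holds protein-coding models with an uninterrupted frame, of 655 codons for Mx2 and 627 for Mx1. The longest transcripts of Mx1 and Mx2 were 94.8% identical over 920 aligned bases and those of Oas1a and Oas1g 97.5% identical over 1860, so the division of reads within each pair is uncertain.

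Eif2ak2 (ENSMUSG00000024079; GRCm38 chromosome 17, 78852564 to 78882573, minus strand) had the highest WT level of the group. Its FPKM was 0.986 in WT and 3.71 in PS19, beside 1.35 in PS19 Zbp1+/-, from 87, 328 and 109 reads. It rose by 1.25 in PS19, a ratio of 3.76 (2.96 to 4.82). In PS19, Eif2ak2 was second only to Oasl2, and its exact Poisson interval (3.32 to 4.14 FPKM) overlapped that of Oas1a (2.91 to 4.24). Oas1b, Mx2 and Mx1 followed with overlapping intervals, then Oasl1 and Oas2 (1.06 and 0.884), and Oas1c and Oas3 were lowest. In WT the interval of each gene overlapped that of the next in order, from Eif2ak2 down to Oas3.

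**Figure D2:**
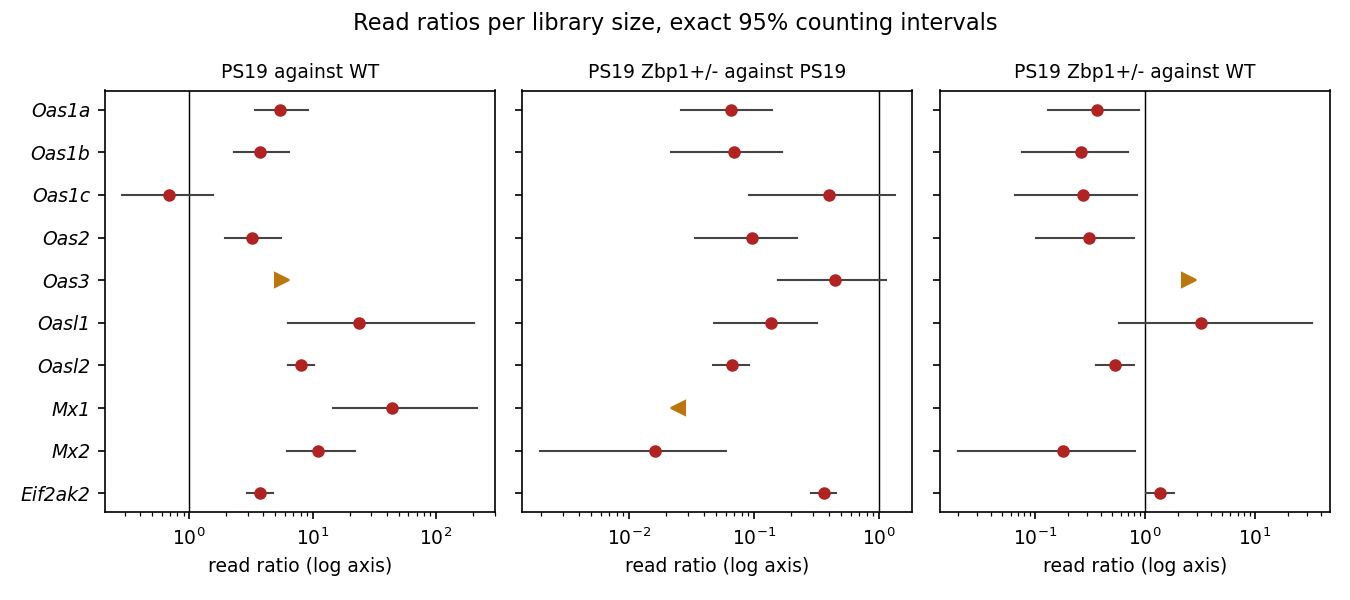
Read ratios of the 10 genes per library size on a log axis, in 1 panel for each of the 3 comparisons, with points for the ratio, lines for the exact 95% counting interval and triangles for bounds against 3 reads. In PS19 against WT every gene but Oas1c lies above 1, and in PS19 Zbp1+/- against PS19 every gene lies below 1.

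In PS19 Zbp1+/- against PS19, all 10 differences were below 0, between -0.10 for Oas3 and -2.29 for Oasl2, with a median of -1.26 beside 0.03 over all expressed genes. The genes that fell were the 6 that had risen in PS19 against WT, and 0 rose, where 4.87% of expressed genes were called lower and 1.88% higher, and 3.78% and 1.46% of all genes with a read. The counting interval lay wholly below 1 for 8 of the 10 and wholly above 1 for 0, where 29.8% and 30.2% of genes with a read did. The comparisons share the PS19 library, so their opposite signs are not independent. Summed over the 10 genes, the read ratio was 0.129 (0.110 to 0.150).

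Oasl2 fell by 2.29, from 638 to 39 reads, and was 15.0-fold lower in PS19 Zbp1+/- (ratio 0.0668, 0.0470 to 0.0923). Oas1a fell by 1.88 and was also 15.0-fold lower (ratio 0.0665, 0.0262 to 0.141), and Oas1b fell by 1.51 (ratio 0.0691, 0.0219 to 0.168). The 3 most abundant Oas genes of PS19 thus had nearly equal ratios, each within the counting intervals of the others. Mx1 fell by 1.59, from 132 reads to 0, and was at least 40.3-fold lower against a floor of 3 reads in that library. Mx2 fell by 1.60, from 134 reads to 2, a ratio of 0.0163 (0.00195 to 0.0601). Eif2ak2 fell by 1.01, from 328 to 109 reads, and its ratio of 0.363 (0.290 to 0.452) lay above the intervals of Oasl2, Oas1a, Oas1b and Mx2.

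The other 4 genes were not called in this comparison. Oas2 went from 68 to 6 reads (difference -0.80; ratio 0.0964, 0.0342 to 0.221) and Oasl1 from 48 to 6 (difference -0.85; ratio 0.137, 0.0478 to 0.320). Oas3, with 17 and 7 reads, had a ratio of 0.450 (0.158 to 1.14), and Oas1c, with 11 and 4 reads, one of 0.397 (0.0922 to 1.34). Both of these intervals included 1, so a difference was not detectable at this depth.

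Between PS19 Zbp1+/- and WT, 0 of the 10 genes were called in either direction, where 0.968% of expressed genes were called higher and 2.11% lower, and 0.76% and 1.62% of all genes with a read. This count depends on the scale. With a pseudocount of 0.1, 5 were lower and 0 higher, where 5.19% of expressed genes were called lower and 2.34% higher. With reads set to at least 3 the count was 7, of which 5 were lower and 2 higher. On that scale 5.84% of expressed genes were called lower and 2.78% higher. The differences lay between -0.48 (Oas1b) and 0.24 (Eif2ak2), with a median of -0.22, 7 below 0 and 3 above. Eif2ak2 was the one well-counted gene above its WT level, with 109 against 87 reads and a ratio of 1.37 (1.02 to 1.83). The lower bound is close to 1 and depends on the library sizes implied by FPKM. Scaled by total reads, the Eif2ak2 difference went from 0.24 to 0.16. Oasl2, with 39 against 79 reads, had a ratio of 0.538 (0.357 to 0.799). Oas1a, at 7 against 21 reads, had 0.363 (0.131 to 0.887), and Oas1b, at 5 against 21, had 0.260 (0.0765 to 0.707). Oas2, at 6 against 21 reads, had 0.312 (0.103 to 0.798), and Oas1c, at 4 against 16, had 0.273 (0.0663 to 0.845). Mx2, at 2 against 12 reads, had 0.182 (0.0198 to 0.816). Oas3 was at least 2.54-fold higher than the WT floor, Oasl1 had 6 against 2 reads (3.27, 0.585 to 33.1), and no fold is given for Mx1, which was at or under 3 reads in both libraries.

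With the library sizes implied by FPKM, the intervals of 6 of the 10 genes lay wholly below 1 in that comparison. Those of Oas3 and Eif2ak2 lay wholly above, Eif2ak2 only narrowly. Of the 17492 genes with a read, 27.1% lay on each side. The 4 of these genes with 16 to 26 WT reads (Oas1a, Oas1b, Oas1c and Oas2) all had 7 reads or fewer in PS19 Zbp1+/-. So did 309 of the 1215 genes in that range of WT reads (25.4%), against 69 (5.68%) in PS19, a range chosen after the values were seen. The part of this loss of low reads in the low Oas values of PS19 Zbp1+/- was not tested.

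Position along chromosome 5 showed which genes of the Oas cluster were expressed. The cluster held 10 genes over 191 kb, of which Oas1d, Oas1e and Oas1f had 0 reads in every library and Oas1h had 1, 1 and 0. Oas1g, an active synthetase beside Oas1a, had 4, 28 and 2 reads. Its difference between PS19 and WT was 0.62 with a ratio of 6.99 (2.44 to 27.4), and its difference between PS19 Zbp1+/- and PS19 was -0.68, so 0 of these 5 further Oas1 paralogs were called. The flanking genes had PS19 minus WT differences of -0.57 (Rasal1), -0.21 (Dtx1), 0.24 (Rph3a) and 0.42 (Ptpn11), none past the threshold. In PS19 Zbp1+/- against PS19, Rasal1 and Dtx1 rose by 1.02 and 1.11 while the neighbouring Oas2 was at -0.80. At the Mx locus Fam3b lies between Mx1 and Mx2, and it had 0, 0 and 6 reads.

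**Figure D3:**
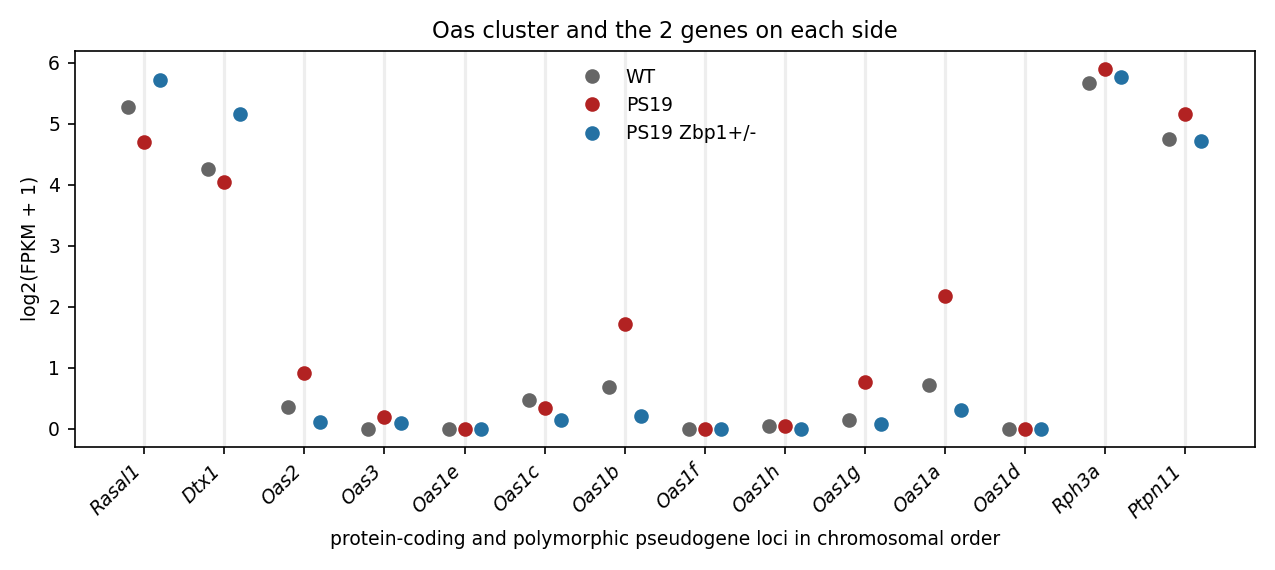
log2(FPKM + 1) of the 10 genes of the Oas cluster in chromosomal order, with 2 flanking genes on each side, and 1 point per library. Oas1a and Oas1b have the widest gap between PS19 and the other libraries inside the cluster, while Oas1d, Oas1e and Oas1f lie at 0.

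Among the partners of Oas in the 2-5A pathway, Pde12, which degrades 2-5A, and Abce1, an ATPase of ribosome recycling, were not called. Pde12 had 310, 338 and 379 reads and Abce1 had 1439, 1484 and 1743. Their PS19 minus WT differences were 0.09 and 0.04, where Oasl2 rose by 1.98. They were at 0.22 and 0.34 in PS19 Zbp1+/- against PS19, where Oasl2 fell by 2.29.

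Of 8 genes listed with PKR, 1 was called: Zbp1. Zbp1 is a sensor of Z-form nucleic acids and is not counted here among the activators and inhibitors of PKR. It rose by 1.20 in PS19 against WT and fell by 1.32 in PS19 Zbp1+/- against PS19. It is itself interferon-inducible, and is the gene whose dosage the design lowers. The other 7, activators and inhibitors of PKR such as Prkra, Dnajc3 and Dhx9, were not called. Their PS19 minus WT differences ran from -0.31 for Tarbp2 to 0.25 for Adar, the editor of double-stranded RNA. Adar had 14.6, 17.5 and 21.9 FPKM, so unlike the PKR gene it was not lower in PS19 Zbp1+/-.

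The eIF2 branch downstream of PKR did not pass the threshold with it. Of 15 genes for the other eIF2 kinases, eIF2, its exchange factor, its phosphatase subunits and stress targets, 0 were called, with differences from -0.36 to 0.19 and a median of -0.15 in PS19 against WT. The other eIF2 kinases Eif2ak1, Eif2ak3 and Eif2ak4 had ratios of 0.956 (0.878 to 1.04), 1.02 (0.895 to 1.15) and 1.09 (0.959 to 1.23), beside 3.76 for Eif2ak2. Atf4, translated when eIF2α is phosphorylated, had 2492, 1943 and 1649 reads and a PS19 minus WT difference of -0.36. Its target Ddit3 was at -0.06. RNA levels do not measure the phosphorylation of eIF2α. Dynamin relatives of Mx were likewise not called, 0 of 7, with PS19 minus WT differences from -0.16 for Dnm1 to 0.53 for Dnm2.

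In the type I interferon signal, 2 of 12 genes rose in PS19 against WT: Irf7, the transcription factor that Oasl1 restrains, by 1.44, and Usp18, a brake on the receptor, by 1.59. Irf7 had 46, 236 and 31 reads, a ratio of 5.12 (3.72 to 7.19) in PS19 against WT. The ISGF3 subunits Stat2 and Irf9 had differences of 0.70 and 0.76, under the threshold. Ifnb1 had 0 reads in every library, and the receptor genes Ifnar1 and Ifnar2 were at 0.16 and 0.42. In PS19 Zbp1+/- against PS19, 5 of the 12 fell, among them Irf9 by 1.18, Irf7 by 1.60, Irf3 by 1.08 and Usp18 by 2.10.

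Of 14 other antiviral effectors, 11 rose and 0 fell in PS19 against WT, with a median of 1.26. Ifit3 and Ifit1, partners in the recognition of viral RNA, rose by 2.92 and 2.39, the ubiquitin-like Isg15 by 2.14, and Rsad2, which makes a chain-terminating nucleotide, by 1.79. Oasl2 at 1.98 lay between Isg15 and Rsad2. In PS19 Zbp1+/- against PS19, 11 of the 14 fell, with a median of -1.44. Against WT, 2 of the 14, Bst2 and Ifitm3, fell in PS19 Zbp1+/-, by 1.02 and 1.38.

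**Figure D4:**
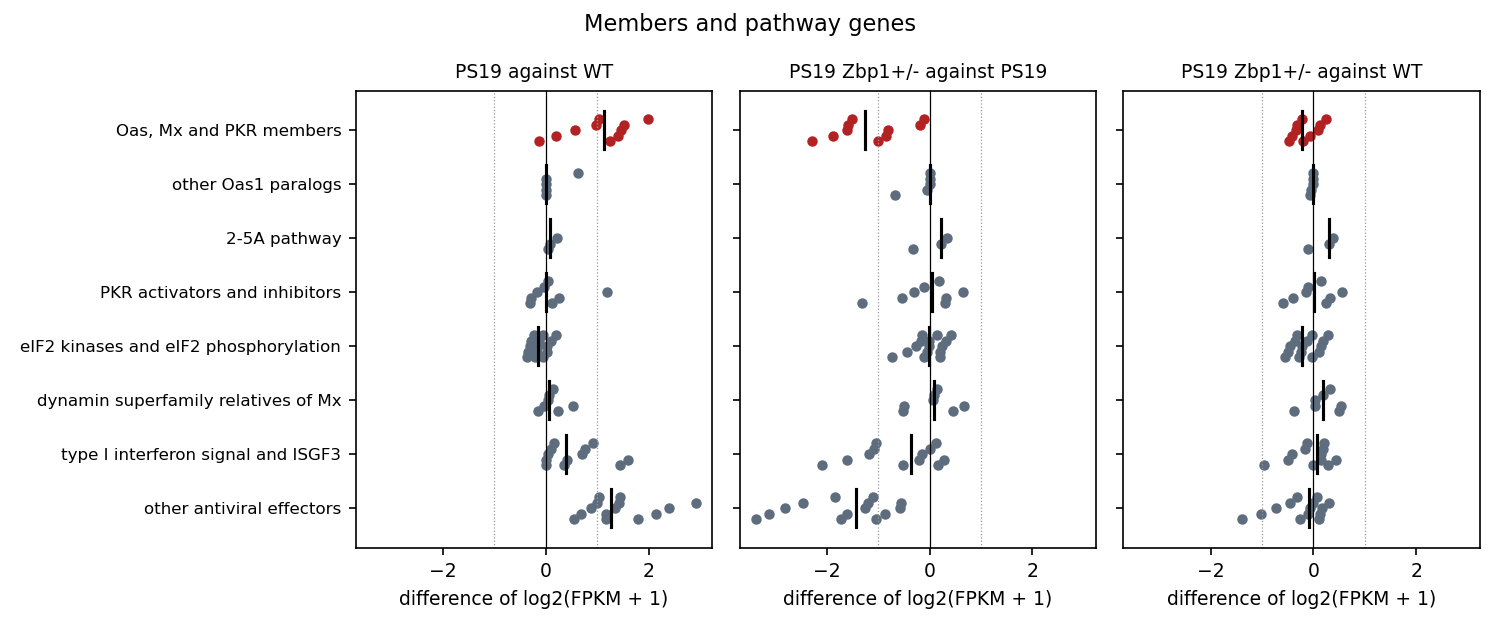
Differences of log2(FPKM + 1) for the 10 genes and for the genes of 7 related lists, in 1 panel per comparison, with a point per gene and a black bar at each median. The medians of the 10 genes (1.14, -1.26 and -0.22) lie nearest to those of the other antiviral effectors (1.26 and -1.44) in the first 2 panels, and in the third panel the 10 genes and the eIF2 list share a median of -0.22.

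By Euclidean distance between a gene's pair of differences (PS19 minus WT, PS19 Zbp1+/- minus PS19) and the medians of the 10 genes, over the 3 libraries, the most similar genes were Cd33, Pros1, Galnt15, Ddx58 and Slc43a3, at distances of 0.034 to 0.054. Cd33, a sialic acid receptor of microglia, had 111, 412 and 82 reads and differences of 1.15 and -1.29. Ddx58, the RNA sensor RIG-I, had 104, 392 and 85 reads and differences of 1.18 and -1.26.

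Markers of several cell types, though not of all, were highest in PS19 like most of these genes. The 9 microglial markers summed to an FPKM of 177, 625 and 188, a ratio of 3.53 in PS19 against WT where the 10 genes had 5.60, and of 0.300 in PS19 Zbp1+/- against PS19 where the 10 genes had 0.117. Of these markers, 7 rose in the first comparison and 6 fell in the second. P2ry12 and Tmem119 were called in neither, with PS19 minus WT differences of -0.13 and 0.16. The 6 astrocyte markers summed to 348, 1163 and 382, with 2 called in each of these comparisons. Gfap alone had 98.4, 768 and 112.5 FPKM. The 5 oligodendrocyte markers summed to 664, 1168 and 435, with 0 called in the first and 5 lower in the second. Border macrophage markers summed to 2.37, 3.05 and 0.217, with Pf4 and Ms4a7 at 0 in PS19 Zbp1+/-. Of these 5, Lyve1 (23, 12 and 3 reads) and Pf4 (9, 5 and 0) were lower in PS19 than in WT, and 3 were higher. Ependymal markers (22.4, 20.3 and 4.32) and blood markers (19.0, 15.8 and 3.44) were also lowest in PS19 Zbp1+/-. Neuronal markers (682, 593 and 858), endothelial markers (50.2, 51.1 and 61.1) and B cell markers (0.258, 0.336 and 0.697) were instead highest there. Neutrophil and monocyte markers summed to 1.40, 4.33 and 0.363, with S100a8, Ly6c2 and Ccr2 at 0 in PS19 Zbp1+/-. T and NK cell markers summed to 0.427, 1.72 and 0.266, with Cd3e, Cd3d and Gzmb at 0 in WT and 6 of the 7 at 0 in PS19 Zbp1+/-. The remaining marker, Cd4, was highest in PS19 Zbp1+/-, with 5, 10 and 17 reads. The part of these cell types in the Oas, Mx and PKR differences was not tested.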

How the data were processed

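TRIzol extraction and an NEB Next Ultra kit gave the libraries, per the labels' protocols. The submitters' processing notes name Trim Galore 0.6.5, STAR 2.5.3a, featureCounts 2.0.4 and the build mm39. Gene positions in the deposited table nevertheless matched GENCODE M21 on GRCm38 for 98.3% of 54409 gene IDs and for 10 of 10 genes described, and are given as GRCm38. Strandedness is not given in the sources used here, so reads from overlapping antisense genes cannot be told apart from those of Oas1c, Oas2, Oasl1 and Eif2ak2.

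The authors deposited FPKM values, 1 column per library. FPKM times gene length was a whole multiple of 1 step (within 0.01) for 100% of values, which gave whole reads. These steps imply library sizes of 17253479 (WT), 17287957 (PS19) and 15826984 (PS19 Zbp1+/-). The recovered reads totalled 16746085, 16400328 and 17109734 in the same order. The implied size is below the total in PS19 Zbp1+/- and above it in both others, so it holds a scaling beyond depth that was not traced. Read ratios use the implied sizes. Libraries were compared by their difference in log2(FPKM + 1), called at 1. The background was protein-coding genes and polymorphic pseudogenes with a mean FPKM over the 3 libraries of at least 0.5. Because each genotype had 1 library, no test and no p-value was computed, and read ratios carry exact 95% counting intervals with a floor of 3 reads.

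The genes named are the 10 members, the genes of 7 related lists (64 genes), the 5 genes of most similar pattern, marker lists of 15 cell types and the genes next to members. Some genes of these lists are not reported here by name. The members and lists were chosen with earlier results of these data known. Alternatives were a pseudocount of 0.1, TPM, scaling by total reads, ratios with reads set to at least 3, a 4-fold threshold, other filters and leaving out the most changed gene. The procedure was tested on simulated data that held counting error alone. Changes were planted only in genes expressed more strongly than most of the 10, so the simulation says little about calls of weakly expressed genes. Promoters came from RefSeq (GRCm38.p6), coding stretches from GENCODE M21, and transcript identity from BLAST 2.17.0. Scripts ran in Python 3.11.15 with scipy 1.17.1, pandas 2.3.3, matplotlib 3.10.9 and numpy 2.4.6.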

Additional observations from a re-analysis of the deposited data

How the results depend on the processing

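A call could reverse only for the genes called on the main scale, which were 6, 6 and 0 of the 10 in the 3 comparisons. Under the 4 alternative scales 0 of these calls reversed. In PS19 Zbp1+/- against WT there was no call to reverse. Of 40 recomputed differences in each comparison, 29, 30 and 26 lay outside the counting interval of the main difference. Mx1 in PS19 Zbp1+/- against WT took the other sign, at 0.12 with reads set to at least 3. Genes past the fold in PS19 against WT numbered 6, and became 9 with a pseudocount of 0.1, 8 with TPM, 7 with total reads, 9 with reads set to at least 3 and 0 at a 4-fold threshold. In PS19 Zbp1+/- against PS19 they numbered 6, and became 8 with a pseudocount of 0.1, 8 with TPM, 6 with total reads, 10 with reads set to at least 3 and 1 at 4-fold. In PS19 Zbp1+/- against WT they numbered 0, and became 5 with a pseudocount of 0.1, 1 with TPM and 7 with reads set to at least 3 (5 lower, 2 higher), and the related genes went from 2 to 5, 5 and 6. The median differences with a pseudocount of 0.1, TPM, total reads, reads set to at least 3 and without the most changed gene were 2.05, 1.97, 1.18, 2.47 and 1.03 in PS19 against WT. They were -2.81, -2.27, -1.35, -3.61 and -1.01 in PS19 Zbp1+/- against PS19, and -0.88, -0.62, -0.23, -1.18 and -0.20 in PS19 Zbp1+/- against WT. Called shares of all genes, in either direction, with a pseudocount of 0.1, TPM and reads set to at least 3 went from 2.34% to 5.1%, 4.81% and 5.65% in PS19 against WT, from 6.75% to 13%, 13.2% and 13.9% in PS19 Zbp1+/- against PS19, and from 3.08% to 7.53%, 6.48% and 8.62% in PS19 Zbp1+/- against WT. Scaled by total reads, the called shares were 2.43%, 7.41% and 3.34% in the 3 comparisons. No share of all genes was computed at the 4-fold threshold. TPM and total reads lowered the higher share of calls from 27.8% to 10.5% and 14.5% in PS19 Zbp1+/- against PS19. In PS19 Zbp1+/- against WT they lowered it from 31.5% to 17.4% and 16.7%. TPM moved the median of all genes to 0.10, -0.23 and -0.15 in the 3 comparisons, and total reads moved it to 0.01, -0.12 and -0.12. The causes were not tested. No paired analysis was possible because each genotype has 1 library, and for the same reason no replicate could be left out. Depth limits every gene but Oasl2 and Eif2ak2, since the other 8 had 7 reads or fewer in PS19 Zbp1+/-.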

Other observations

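Around the Mx, Oasl and Eif2ak2 loci none of the flanking genes was called in any of the 3 comparisons. Bace2 and Dscam, beside Mx1, had PS19 minus WT differences of 0.27 and 0.32, and 2210016L21Rik, beside Oasl1, had -0.37. Gpatch11 and Heatr5b, beside Eif2ak2, had -0.07 and 0.41. Tmprss2, beside Mx2, had 3, 11 and 0 reads in the order WT, PS19, PS19 Zbp1+/-, and Ripk4, further along, had 32, 38 and 2.

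Genes annotated over members on the opposite strand held few reads: Gm43068 over Oas2 had 0, 2 and 0, Gm26637 over Eif2ak2 had 3, 6 and 2, and Gm43069 over Oas1c and Gm13822 over Oasl1 had 0 in every library.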
